A study of Saccharomyces cerevisiae with 3 samples.

Results

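Genes of peroxisome biogenesis and fatty acid oxidation were followed upon osmostress in the budding yeast Saccharomyces cerevisiae. They are all genes that the annotation of the array calls PEX with a number, and a further 16 genes of fatty acid activation, transport and oxidation and of their transcriptional control (POX1, FOX2, POT1, FAA1, FAA2, FAA3, FAA4, PXA1, PXA2, ECI1, DCI1, TES1, ANT1, OAF1, PIP2 and ADR1). This gave 34 genes of the 4069 named genes that were measured, 18 of them PEX genes. Other peroxin genes were not analysed here. Expression came from 3 independent cultures of wild-type strain BY4741, a haploid laboratory strain (MATa his3Δ1 leu2Δ0 met15Δ0 ura3Δ0), cultured at 30 °C in rich YPD medium and sampled in mid-log phase. RNA from cells exposed for 15 minutes to 0.4 M NaCl (Cy3) and RNA from untreated cells (Cy5) of each culture were hybridized together to 1 two-colour array (the duration is that of the labels and methods, and another passage of the study gives a shorter one), so both channels carry the same gene deletions. The dyes were not exchanged, so that an effect of dye on a gene cannot be told apart from an effect of NaCl.

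Peroxisomes of yeast are the only site of fatty acid β-oxidation. Their matrix proteins are made in the cytosol and brought in, fully folded, by cycling receptors that dock at the membrane, release their cargo and are then pulled out again, with ubiquitin as the signal, by a complex of AAA ATPases that includes Pex6. The genes of β-oxidation are repressed by glucose and strongly induced by oleate, through the heterodimer of Oaf1 and Pip2 and through Adr1, a zinc-finger activator that is held in check while glucose is plentiful. The cultures measured here were grown on glucose, with no oleate added.

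The values are the log2 ratio of NaCl over untreated cells on each array, averaged over the 7 spots of a gene. Spots of a gene are repeated readings of the same array and add no replicates. The deposited values state neither their log base nor their direction. Base 2 was taken because limma, the tool named in the submitters' notes, gives log2 ratios, and every fold change below rests on it. The direction is likewise likely rather than given, and rests on the 385 named genes of the study's table of genes induced by osmostress, all of which were above 0 on every array. Among these are 5 of the genes under study. The study chose the genes of that table by their fold change in its own microarray data. The check therefore gives only the direction in which the authors read the arrays, and supports nothing about single genes. Limma tested each gene against no change over the 3 arrays with Benjamini-Hochberg adjustment over all 4069 genes, and "rose" and "fell" are used below for genes at an adjusted p under 0.05. Of all genes, 26.9% rose and 27.9% fell by this rule. The median over all genes was between -0.023 and -0.0010 on the 3 arrays, so a change common to all transcripts would not be seen. HIS3, LEU2, MET17 (MET15) and URA3, which are deleted in whole or in part in this strain, lay between -0.21 and 0.11 on single arrays and none passed the test, as far as a ratio can check the strain. Across genes, which are not independent replicates, replicate 1 correlated less with the other arrays (Pearson's r = 0.931 with replicate 2 and 0.890 with replicate 3) than these did with each other (r = 0.971).

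Upon osmostress, the changes in the 34 genes were modest in size, none above 2.50-fold in either direction. Of the 10 functional classes, of 2 to 6 measured genes each, 4 held both genes that rose and genes that fell. How often classes of this size hold both directions among all genes was not tested. Of the 34 genes, 13 (38.2%) rose, 5 (14.7%) fell and 16 did not pass the test, beside 26.9% and 27.9% of all genes. The genes that rose were FAA1, ADR1, TES1, POT1, ECI1, PEX2, PEX4, PEX3, PEX18, PXA1, PEX25, PEX14 and PEX22, and those that fell were FAA3, FAA4, PEX6, PEX13 and PEX21. The median of the 34 mean log2 ratios was 0.16, against -0.0058 over all genes. On the single arrays the median of the 34 genes was 0.047, 0.23 and 0.19. A change of at least 1.5-fold was seen for 6 genes upwards (17.6%, against 14.1% of all genes) and for 3 genes downwards (8.82%, against 12.3%). The count of genes that rose depended on the arrays used. It was 8 without replicate 2 and 17 without replicate 1. At a stricter adjusted p of 0.01, 9 of the 34 genes rose and 4 fell, where 19.9% and 19% of all genes did.

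**Figure D1:**
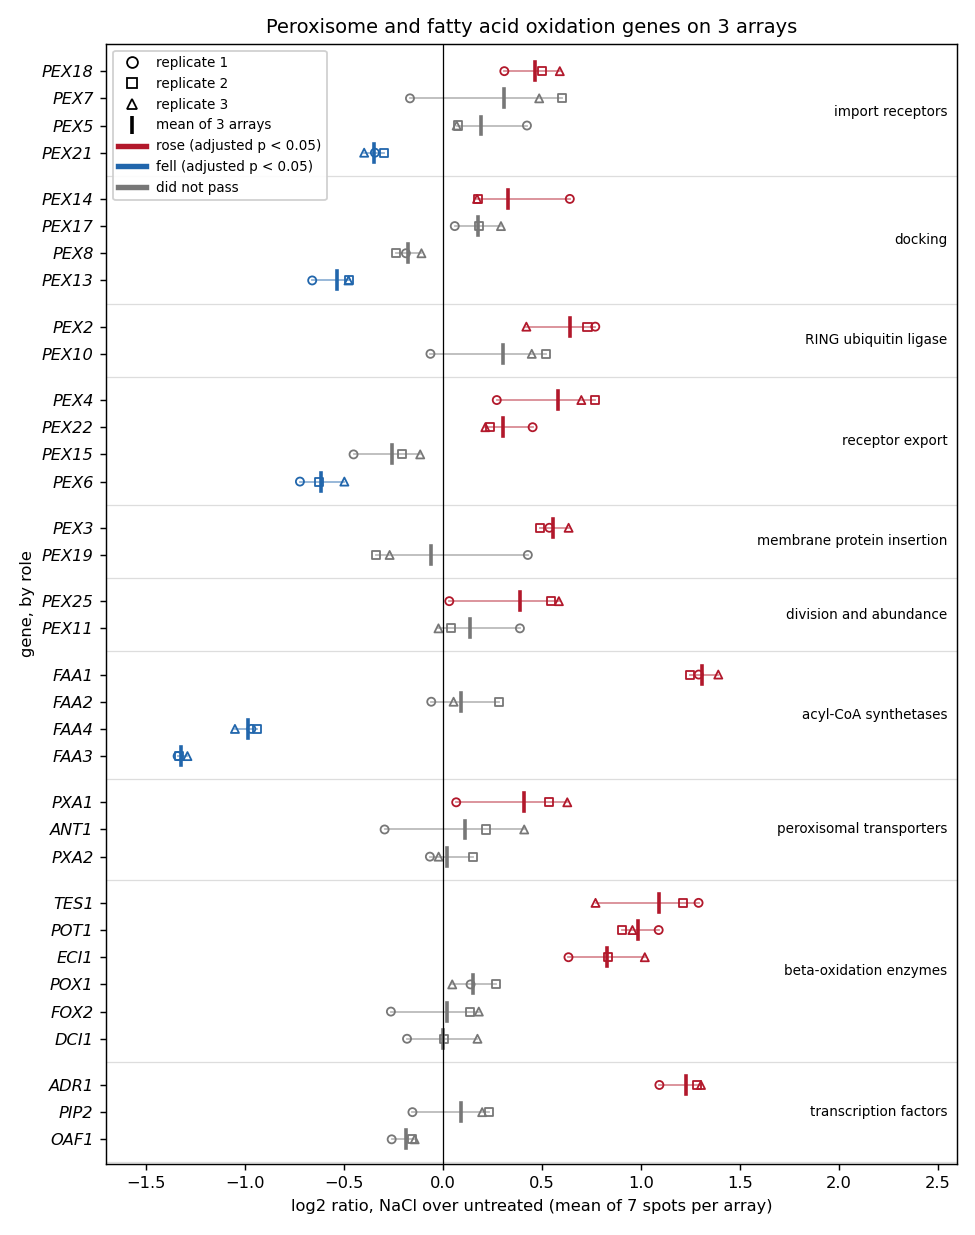
Log2 ratio of NaCl over untreated cells (x axis) for each of the 34 genes (y axis, by role), with 1 symbol per array, each the mean of 7 spots, and a bar at the mean of the 3 arrays. Red genes rose and blue genes fell at an adjusted p under 0.05, grey genes did not pass. FAA1 at the right and FAA3 and FAA4 at the left have the most widely separated values, all within 1 class.

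**Figure D2:**
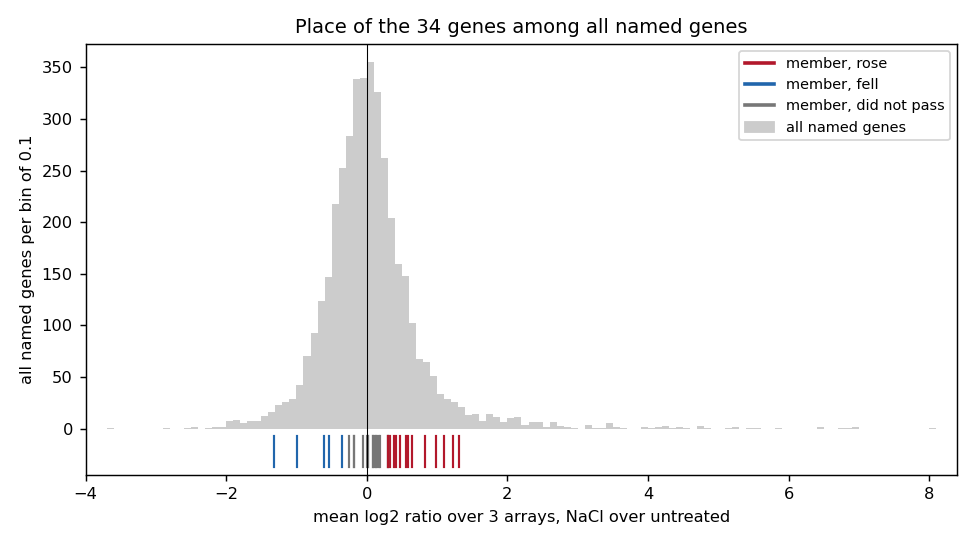
Histogram of the mean log2 ratio over 3 arrays for all 4069 named genes (grey, y axis is the number of genes per bin of 0.1), with a tick below it for each of the 34 genes. The ticks run from -1.32 for FAA3 to 1.31 for FAA1, while the genes of the array reach from -3.70 to 8.04.

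The acyl-CoA synthetases held both the highest and the lowest of the 34 values. These enzymes join fatty acids to coenzyme A, without which they enter neither oxidation nor lipid synthesis. FAA1, which encodes the main synthetase for long-chain fatty acids taken up from the medium, had log2 ratios of 1.29, 1.25 and 1.39 on replicates 1, 2 and 3. This is a mean rise of 2.48-fold (1.31 ± 0.074, SD, n = 3, adjusted p = 1.47e-05 from limma), and 95.6% of all genes lay below it. FAA4, which encodes the second synthetase for imported long-chain fatty acids, stood at -0.97, -0.94 and -1.05, 1.98-fold lower in the mean (-0.99 ± 0.058, adjusted p = 6.82e-05 from limma). FAA3, whose product prefers long and very long chains, fell on every array, with -1.34, -1.33 and -1.29. It was 2.50-fold lower in the mean (-1.32 ± 0.027, adjusted p = 1.23e-05 from limma), the lowest of the 34, and only 1.70% of all genes lay below it. FAA2, which encodes the medium-chain synthetase inside peroxisomes, had values of -0.058, 0.28 and 0.054 on both sides of 0 and did not pass (adjusted p = 0.472 from limma). The values of FAA1 did not overlap with those of the other members of the family on any array, and all 21 spot values of FAA1 were above 0 while all 21 of FAA4 and all 21 of FAA3 were below.

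FAA1 and FAA4 are close paralogues that share much of their work, and their log2 ratios differed by 2.26, 2.19 and 2.44 on the 3 arrays. The mean difference was 2.30 ± 0.13 (SD, n = 3), which is a 4.91-fold change of the ratio between their transcripts. With 3 arrays, the exact sign-flip permutation test (two-sided) cannot give less than p = 0.25, and this was its value for 5 of the 7 pairs of related genes compared here. After Benjamini-Hochberg adjustment over the pairs the smallest value was 0.35, so sizes and their spread over arrays are given for pairs instead of calls. Spots of similar genes may measure both members of a pair, to an extent that was not tested.

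The β-oxidation enzymes split into 3 genes that rose and 3 that did not pass, and none fell. Among all genes, 26.9% rose and 27.9% fell, and whether so small a class differs from these shares was not tested. TES1, which encodes the acyl-CoA thioesterase that frees coenzyme A from acyl chains, had log2 ratios of 1.29, 1.21 and 0.77 on replicates 1, 2 and 3, a mean rise of 2.13-fold (1.09 ± 0.28, adjusted p = 0.000178 from limma). POT1, which encodes the thiolase of the last step of the cycle, stood at 1.09, 0.91 and 0.96 and rose 1.98-fold (0.98 ± 0.10, adjusted p = 8.11e-05). ECI1 encodes the enoyl-CoA isomerase needed for unsaturated chains such as oleate. It had 0.63, 0.83 and 1.02, and rose 1.78-fold (0.83 ± 0.19, adjusted p = 0.000368). The array means of these 3 genes exceeded those of the remaining enzymes of the class on every array. The 3 genes were set apart by their calls on these same arrays, so this separation adds no support.

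The enzymes of the first and middle steps of the cycle did not pass. POX1, which encodes the acyl-CoA oxidase of the first step, had 0.14, 0.27 and 0.048 on the 3 arrays (adjusted p = 0.210 from limma). FOX2, which encodes the multifunctional enzyme of the hydration and dehydrogenation steps, had -0.26, 0.14 and 0.18 (adjusted p = 0.898). DCI1, a paralogue of ECI1 named as a dienoyl-CoA isomerase gene, had -0.18, 0.0068 and 0.18, with a mean of 0.00037 (adjusted p = 0.998). The values of FOX2 and DCI1 thus lay below 0 on replicate 1 and above it on the other arrays. ECI1 exceeded DCI1 by 0.82, 0.83 and 0.85 on the 3 arrays, a mean difference of 0.83 ± 0.015 (SD, n = 3) and the smallest spread of the 7 pairs, although the genes by themselves had an SD between arrays of 0.19 (ECI1) and 0.18 (DCI1).

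**Figure D3:**
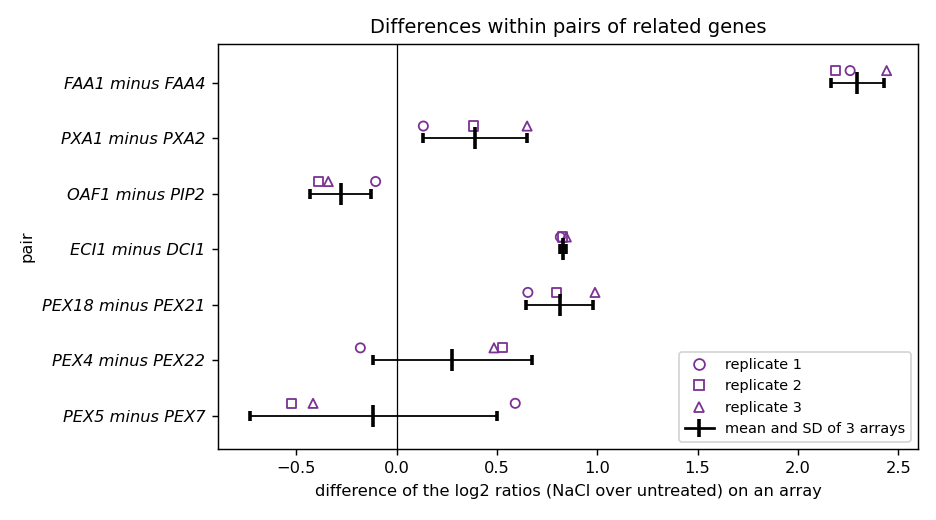
Difference of the log2 ratios of 2 related genes on the same array (x axis) for 7 pairs (y axis), with 1 symbol per array and, below the symbols, the mean with its SD over the 3 arrays. FAA1 minus FAA4 lies furthest from 0 at 2.30, ECI1 minus DCI1 is the tightest, and the differences of PEX4 minus PEX22 and PEX5 minus PEX7 fall on both sides of 0.

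Transport into the peroxisome showed smaller values. PXA1 and PXA2 encode the paired subunits of the ABC transporter that brings activated long-chain fatty acids into the organelle. PXA1 had log2 ratios of 0.068, 0.54 and 0.63 and rose 1.33-fold (0.41 ± 0.30, adjusted p = 0.0244 from limma), while PXA2 had -0.065, 0.15 and -0.021 (adjusted p = 0.858). PXA1 no longer passed when replicate 2 (adjusted p = 0.146) or replicate 3 (0.0788) was left out. PXA1 exceeded PXA2 by 0.39 ± 0.26 (SD, n = 3), with the same sign on every array. ANT1, which encodes the carrier that supplies the peroxisome with ATP for the activation of fatty acids inside it, ranged from -0.29 on replicate 1 to 0.41 on replicate 3 and did not pass (adjusted p = 0.525).

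Among the transcription factors, ADR1 rose and the oleate-responsive pair did not pass. ADR1 encodes the activator of glucose-repressed genes named above, whose targets include genes of β-oxidation and ADH2. Its log2 ratios were 1.09, 1.28 and 1.30, a mean rise of 2.34-fold (1.23 ± 0.12, SD, n = 3, adjusted p = 2.56e-05 from limma), the second highest of the 34 values, with 95.2% of all genes below it. OAF1, which encodes the subunit that senses oleate, had -0.26, -0.16 and -0.14 (adjusted p = 0.121). Its partner PIP2 had -0.15, 0.24 and 0.20 (adjusted p = 0.497). OAF1 was below PIP2 on every array, by 0.28 ± 0.15 (SD, n = 3). All 21 spot values of OAF1 were below 0, but they are repeated readings of 3 arrays, over which OAF1 did not pass.

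The PEX genes covered a narrower range. Among 18 PEX genes, 7 (38.9%) rose and 3 (16.7%) fell, beside 26.9% and 27.9% of all genes. The means of the PEX genes ran from -0.62 for PEX6 to 0.64 for PEX2, with a median of 0.25. Of the receptors that carry matrix proteins, PEX5 encodes the receptor for the targeting signal at the C terminus and PEX7 the one for the signal near the N terminus, which needs Pex18 or Pex21 as a coreceptor. PEX5 had log2 ratios of 0.43, 0.077 and 0.070 (adjusted p = 0.167 from limma) and PEX7 had -0.17, 0.60 and 0.49 (adjusted p = 0.118). Neither passed, and on replicate 1 they stood in the opposite order to that on the other arrays, so that their difference of -0.12 ± 0.62 (SD, n = 3) was far smaller than its spread.

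The coreceptors PEX18 and PEX21, which are paralogues and can stand in for each other, moved in opposite directions. PEX18 had 0.31, 0.50 and 0.59 and rose 1.38-fold (0.47 ± 0.14, adjusted p = 0.00492 from limma). PEX21 had -0.34, -0.30 and -0.40 and was 1.27-fold lower (-0.35 ± 0.050, adjusted p = 0.0130). Their array means did not overlap, and PEX18 exceeded PEX21 by 0.65, 0.80 and 0.99 on the 3 arrays (mean 0.81 ± 0.17, SD, n = 3). Single spots did overlap on replicate 1, where a spot of PEX21 stood at 0.31 and a spot of PEX18 at -0.12. Both calls are sensitive to the number of arrays. Without replicate 2 the adjusted p was 0.0503 for PEX18 and 0.118 for PEX21, and without replicate 3 it was 0.0615 for PEX21.

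At the docking site, PEX13 and PEX14, which encode membrane proteins that receive the loaded receptors, also parted. PEX13 had -0.66, -0.47 and -0.48 and was 1.45-fold lower (-0.54 ± 0.11, adjusted p = 0.00200 from limma), and all of its 21 spot values were below 0. PEX14 had 0.64 on replicate 1 but 0.18 and 0.17 on the others, a mean rise of 1.26-fold (0.33 ± 0.27, adjusted p = 0.0451). Of the 18 genes that passed, PEX14 kept its call under the fewest alternatives (4 of 8), as it was lost without replicate 1 (adjusted p = 0.0874), without replicate 2 (0.0816), with the median of the spots in place of their mean (0.0575) and at a threshold of 0.01. PEX17, of the same complex, had a mean of 0.18 (adjusted p = 0.150) and PEX8, which encodes a lumenal protein that links docking to the ubiquitin ligase, a mean of -0.18 (adjusted p = 0.135). Neither passed. The 21 spot values of PEX8 were all below 0, but they are repeated readings of 3 arrays.

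The machinery that ubiquitinates and extracts receptors contained the highest and the lowest PEX genes. PEX2, which encodes a RING-finger subunit of the ligase, had 0.77, 0.73 and 0.42 and rose 1.56-fold (0.64 ± 0.19, adjusted p = 0.00139 from limma). PEX10, for another RING-finger subunit, had -0.062, 0.52 and 0.45 and did not pass (adjusted p = 0.0794). PEX6, which encodes an ATPase that extracts the receptors, had -0.72, -0.63 and -0.50 and was 1.53-fold lower (-0.62 ± 0.11, adjusted p = 0.00103). The values of PEX2 and PEX6 lay on opposite sides of 0 on every array. They were set side by side as the highest and lowest PEX means on these same arrays, so this adds no support. PEX15, for the membrane anchor of the ATPase, had -0.45, -0.21 and -0.11 and did not pass (adjusted p = 0.0660).

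PEX15 depended on a single spot. Of its 7 spots, 1 stood at 0.42 and 0.33 on replicates 1 and 2, where the other 6 lay between -0.67 and -0.54 and between -0.37 and -0.24. With the median of the spots the mean of PEX15 was -0.33 and it passed (adjusted p = 0.0380 from limma). The ubiquitin-conjugating enzyme of the machinery and its membrane anchor both rose. PEX4, for the enzyme, had 0.27, 0.77 and 0.70 (1.49-fold, 0.58 ± 0.27, adjusted p = 0.00424). PEX22, for the anchor, had 0.45, 0.24 and 0.21 (1.23-fold, 0.30 ± 0.13, adjusted p = 0.0304), a call lost without replicate 2 (adjusted p = 0.165). PEX22 was the higher of this pair on replicate 1 and PEX4 on the other arrays, so that their mean difference of 0.28 ± 0.40 (SD, n = 3) was within its spread.

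Peroxisomal membrane proteins are inserted with the help of Pex19, their soluble receptor, and Pex3, its anchor in the membrane. PEX3 had closely similar values of 0.54, 0.49 and 0.64 and rose 1.47-fold (0.55 ± 0.074, adjusted p = 0.00146 from limma). PEX19 was the most variable of the 34 genes, at 0.43 on replicate 1 and -0.34 and -0.27 on the others (SD 0.42, adjusted p = 0.766). Without replicate 1 its mean was -0.30 (adjusted p = 0.0150). Of the genes that control the division and number of peroxisomes, PEX25 had 0.033, 0.55 and 0.59 and rose 1.31-fold (0.39 ± 0.31, adjusted p = 0.0321), but did not pass when replicate 2 (adjusted p = 0.205) or replicate 3 (0.0942) was left out. PEX11, the classical proliferation gene, had 0.39, 0.040 and -0.022 and did not pass (adjusted p = 0.329).

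Replicate 1 stood apart for many of these genes, as it did for the array as a whole. It held the value farthest from the median of the 3 in 22 of the 34 genes (64.7%), against 55.0% of all genes. The sign was the same on all 3 arrays in 70.6% of the 34 genes, near the 72.6% of all genes. It differed between arrays in 10 of the 34, beside 1116 of all 4069 genes. In 8 of the 10, namely PEX7, PEX10, PEX19, ANT1, PIP2, FAA2, FOX2 and DCI1, replicate 1 alone had the other sign, beside 647 of all genes. No gene that rose or fell was among these 10, which a test against 0 over the same arrays makes likely. The calls among all 1116 such genes were not counted here. Without replicate 1, 6 genes that had not passed did so, namely PEX7 (mean 0.54, adjusted p = 0.00145 from limma), PEX10 (0.49, adjusted p = 0.00214), ANT1 (0.31, adjusted p = 0.0186), PEX17 (0.24, adjusted p = 0.0395), PIP2 (0.22, adjusted p = 0.0469) and PEX19, given above. The spread between arrays (SD) ran from 0.027 for FAA3 to 0.42 for PEX19, with a median of 0.17, close to the 0.16 of all genes. Spots of a gene varied less than arrays did, with a median SD between spots of 0.075, 0.091 and 0.094 on replicates 1, 2 and 3 for these genes. All 21 spot values were above 0 in 8 of the 13 genes that rose and below 0 in 4 of the 5 that fell. The genes were called on these same values, and the share among all called genes was not determined. OAF1 and PEX8, which did not pass, also had all 21 values below 0. Of the other genes that rose, PEX18 and PEX25 had 18 of 21 values above 0, and POT1, PXA1 and PEX22 had 20. The negative value of POT1 was -0.23 on replicate 2. PEX21, which fell, had 1 positive value of 21, at 0.31 on replicate 1.

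**Figure D4:**
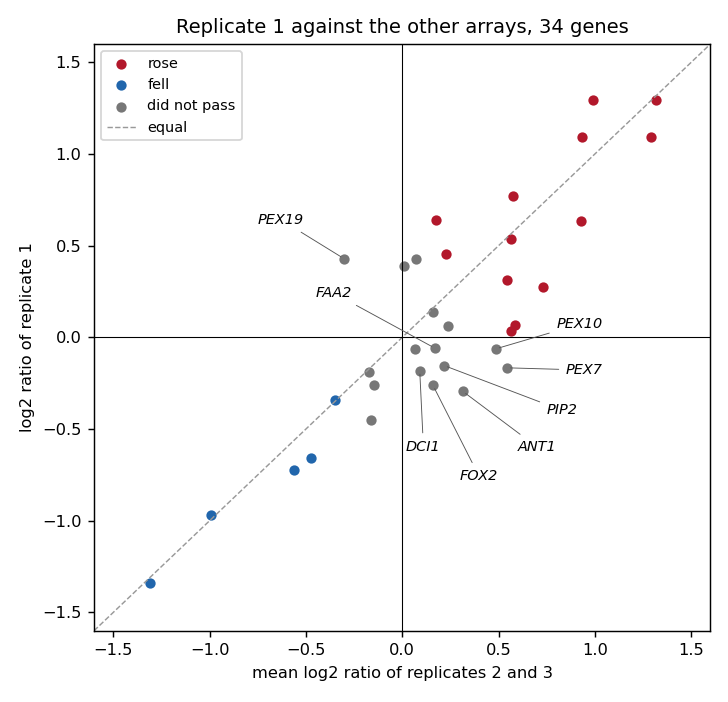
Log2 ratio on replicate 1 (y axis) against the mean of replicates 2 and 3 (x axis) for each of the 34 genes, with the dashed line where both are equal. The 8 named genes lie across 0 on replicate 1, PEX19 above it and the other 7 below, while FAA3 and FAA4 at the lower left and FAA1 at the upper right lie near the line.

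The 34 genes lie on 13 chromosomes. The nearest protein-coding gene upstream, taken from the order of genes in the R64 annotation, was itself measured for 24 of them. In 6 cases both genes passed the test, and in 4 of these they moved in the same direction, near the share of 61.5% (498 of 810) among all measured genes that passed together with their upstream neighbour. The 6 are made up of 3 divergent and 3 tandem cases, with 2 of each in the same direction. PEX18 and its upstream neighbour YAP1801 (1.01) rose together, as did TES1 and REC107 (0.75), PEX14 and LYS5 (0.77) and PEX25 and CAR1 (0.70, all as mean log2 ratios). POT1 rose while BNR1, transcribed from the other side of the same intergenic region, fell (-0.65, adjusted p = 0.00111 from limma), and PEX21 fell while PFK1 rose (0.46, adjusted p = 0.00526).

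Genes of related pathways, listed by function, were read in the same fit. Of 14 further enzymes that reside in peroxisomes wholly or in part, 7 rose, 2 fell and 5 did not pass. Among all genes, 26.9% rose and 27.9% fell, and a difference from these shares was not tested. CAT2, which did not pass, is counted both here and in the carnitine shuttle below. The median of the 14 enzymes was 0.33, against -0.0058 over all genes. By far the highest were GPD1, for the glycerol-3-phosphate dehydrogenase of glycerol synthesis (18.2-fold, 4.18 ± 0.33), and PNC1, for a nicotinamidase (15.6-fold, 3.97 ± 0.38). Both proteins are also found outside peroxisomes. CIT2, for peroxisomal citrate synthase, rose by 0.71 ± 0.25 and CTA1, for the peroxisomal catalase, by 0.68 ± 0.15 on the log2 scale. CTA1 was singled out after its value was seen. STR3, for a peroxisomal enzyme of methionine synthesis, fell against the list (-1.05 ± 0.21, adjusted p = 0.000127 from limma).

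In the carnitine shuttle, which carries acetyl units from peroxisomes to mitochondria, 2 of 5 genes rose and none fell. Among all genes, 26.9% rose and 27.9% fell, and whether so short a list differs from these shares was not tested. CAT2 (0.11), YAT2 (0.070) and YAT1 (-0.25) did not pass, and the median of the list was 0.11. AGP2, for a plasma membrane protein linked to carnitine uptake, rose 3.31-fold (1.72 ± 0.26) and CRC1, for the mitochondrial carnitine carrier, 1.61-fold (0.68 ± 0.046). Of 5 genes for the fission machinery that peroxisomes share with mitochondria, FIS1, for its membrane receptor, rose by 0.36 and DNM1, for a dynamin-related GTPase, was at -0.36 and fell, and the other 3 did not pass. Both calls were lost without replicate 2 (adjusted p = 0.0649 and 0.162), and that of DNM1 without replicate 3 (0.0545).

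In the synthesis of fatty acids, the opposite branch of the metabolism, 3 of 8 genes (37.5%) rose and 2 (25.0%) fell, beside 26.9% and 27.9% of all genes. ELO1, for the elongase that starts from medium chains, rose 1.97-fold (0.98 ± 0.21, adjusted p = 0.000173 from limma) and FAS1, for a subunit of fatty acid synthase, by 0.36, while ELO3, for the elongase of very long chains, was at -0.38 and ACC1, for acetyl-CoA carboxylase, at -0.33. The calls of ACC1 and ELO3 were lost without replicate 2 (adjusted p = 0.204 and 0.0676) and without replicate 3 (0.121 and 0.0939), and that of FAS1 without replicate 2 (0.143). Of 5 genes of lipid storage and release, DGA1, for a diacylglycerol acyltransferase, rose by 0.83, ARE2, for a sterol acyltransferase, by 0.48 and TGL1, for a steryl ester hydrolase, by 0.37, LRO1, for the other acyltransferase that makes triacylglycerol, fell (-0.30), and 1 did not pass. The calls of LRO1 and TGL1 were lost without replicate 2 (adjusted p = 0.266 and 0.0961) and without replicate 3 (0.219 and 0.144).

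Among 4 regulators of oleate and glucose-repressed genes outside the 34, CAT8 rose and SNF4 fell. CAT8, for a zinc-cluster activator of genes used on non-fermentable carbon, had log2 ratios of 1.02, 1.26 and 1.48, a mean rise of 2.39-fold (adjusted p = 5.56e-05 from limma), about the size of the rise of ADR1 (2.34-fold). SNF4, for the regulatory γ subunit of the Snf1 kinase, had -1.03, -0.42 and -0.28 (mean -0.58, adjusted p = 0.0115), with replicate 1 lowest. SNF1 and MIG1 did not pass.

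**Figure D5:**
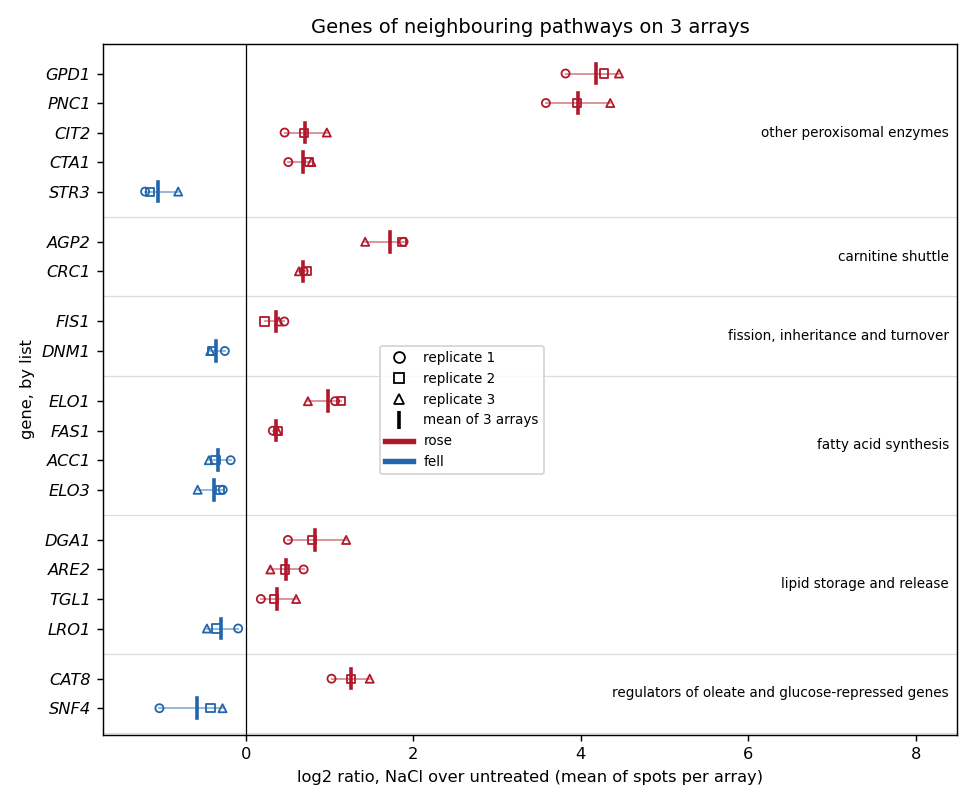
Log2 ratio of NaCl over untreated cells (x axis) for named genes of 6 related lists (y axis), with 1 symbol per array and a bar at the mean of the 3 arrays. Red genes rose and blue genes fell at an adjusted p under 0.05. GPD1 and PNC1 lie near 4, far to the right of all others, while each list except the carnitine shuttle holds genes of both directions.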

How the data were processed

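RNA of 3 cultures was compared on 3 two-colour arrays, stressed (Cy3) against untreated (Cy5). The authors deposited 1 normalized log ratio per spot, read here as log2, the scale of limma, which is the tool named in the processing notes of the submitters. Its version, the background correction and any filter were not given in the sources used here, so dim spots could not be left out, and the number of arrays limits the precision. Of 45220 spots, 28532 carry 1 gene symbol and none several. Of 4073 platform symbols, 3940 were current in R64, 129 were matched as synonyms and 4 kept. The value of a gene on an array was the mean of its spots, taken as deposited. Limma (version 3.58.1, R 4.3.3) fitted an intercept to the 3 ratios of each of 4069 genes, with empirical Bayes, two-sided p-values and Benjamini-Hochberg adjustment at 0.05, and was tested on simulated data. Each array already pairs both conditions. Pairs of genes were compared by exact sign-flip tests, of which 7 of 13 listed pairs had both genes measured. Every gene of the set is named, and from related lists up to 4 genes past the threshold with the largest change and the 1 largest against most of its list. Members and lists were chosen with earlier results of these data known. Alternatives were the median of spots, centring, scaling, leaving out each replicate, robust empirical Bayes and a threshold of 0.01. Promoter motifs, targeting signals and protein identities were not analysed here. Python 3.11.15, numpy 2.4.6, pandas 2.3.3 and matplotlib 3.10.9 were used.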

Additional observations from a re-analysis of the deposited data

How the results depend on the processing

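The number of genes that rose (13) was 8 to 17 when 1 replicate was left out, with 8 without replicate 2, and 9 to 13 under the other alternatives. The number that fell (5) was 4 to 6 under all alternatives. Without replicate 2, 6 calls among the 34 genes were lost, 3 without replicate 3, 1 without replicate 1 and 5 at a threshold of 0.01. Genes that had not passed did so without replicate 1 (6 genes) and with the median of spots (1 gene). Centring, scaling and robust empirical Bayes changed no call or sign among them. The calls of FAA1, ADR1, TES1, POT1, ECI1, PEX2, PEX3, PEX4, FAA3, FAA4, PEX6 and PEX13 held under all 8 alternatives at their thresholds. Means near 0 that did not pass changed sign when 1 replicate was left out, with ranges of -0.038 to 0.31 for ANT1, -0.087 to 0.091 for DCI1, -0.0019 to 0.17 for FAA2, -0.062 to 0.16 for FOX2, -0.30 to 0.080 for PEX19 and -0.043 to 0.066 for PXA2, and the mean of DCI1 was -0.010 with the median of spots. With the median of spots, ECI1 exceeded DCI1 by 0.84, more than 1 SD from 0.83 because that SD is small. The cause of these changes was not tested. The pairing of both conditions on 1 array is already used in each ratio, and no second group exists for a further paired comparison. Spot intensities were not analysed here, so how far signal over background limits these values is unknown.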
